A study of Mus musculus with 56 samples.

Results

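The microRNAs of the mouse liver other than miR-122 were compared between floxed mice 14 days after Cre and floxed mice that received no injection. All 6 mice were of the 129Sv/J background, with loxP sites on either side of the miR-122 gene. The day 14 mice had received a recombinant adeno-associated virus of serotype 8 (rAAV) that carries Cre under the Ef1a promoter, which is not restricted to one cell type. The day 0 mice were uninjected, so vector, Cre and loss of miR-122 came together and cannot be told apart. There were 3 mice in each group and each library was made from the liver of 1 mouse. Age and sex are not given in the labels.

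A microRNA entered the comparison when its mean over these 6 libraries reached 10 RPM. RPM stands here for reads per 1000000 reads of microRNAs other than miR-122, after removal of the 1 that was added to every deposited value. This left 226 of the 478 microRNAs listed besides miR-122. Another 151 had at least 1 read but a mean below 10 RPM, and 101 had no read in these libraries. The last microRNAs inside the limit were miR-466d at 10.2 RPM, miR-212 at 10.8 RPM and miR-434 at 11.3 RPM, and the first outside were miR-1186 at 9.79 RPM, miR-467g at 9.57 RPM and miR-219-1 at 9.39 RPM. Of the 226, 203 reached 10 RPM in the day 0 mean, and 23 did so only in the day 14 mean, so these 23 had to be higher at day 14. The 226 members together held 99.9% or more of the reads other than miR-122 in each library.

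MicroRNAs are short RNAs that guide Argonaute proteins to messenger RNAs, mostly through pairing of the seed, bases 2 to 8 from the 5′ end. MicroRNAs with the same seed share many targets and are grouped as a family. In the adult liver hepatocytes express miR-122 far above any other microRNA, while miR-223, miR-142 and miR-150 belong to blood cells and miR-126 to endothelium. In whole liver, a change in how many cells of a type are present and a change of RNA per cell cannot be told apart.

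The mature sequences of the microRNAs on which the results turn are given from RefSeq (GRCm38.p6), with the seed in capitals. The deposited values do not separate the arms of a hairpin, so the listed arm is the one usually loaded. The first pair shows the seed shared by miR-34a, which had the largest called rise, and miR-34b, which did not reach 10 RPM.
miR-34a-5p: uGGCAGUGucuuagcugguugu
miR-34b-5p: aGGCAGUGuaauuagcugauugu
The next were higher in every day 14 liver than in any day 0 liver, as were 45 of all 226 members (19.9%). They are miR-155, miR-342 and miR-223, microRNAs of blood cells, and miR-136, miR-376b, miR-434 and miR-665 of the imprinted Dlk1-Dio3 locus. In others of the same lists, such as miR-142, miR-511, miR-127 and miR-376a, the groups overlapped. miR-376b, miR-434 and miR-665 passed the filter only through day 14, so they had to be higher there.
miR-155-5p: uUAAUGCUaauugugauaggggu
miR-342-3p: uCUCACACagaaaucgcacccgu
miR-223-3p: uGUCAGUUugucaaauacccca
miR-136-5p: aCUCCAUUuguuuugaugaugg
miR-376b-3p: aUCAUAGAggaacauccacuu
miR-434-3p: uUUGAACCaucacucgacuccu
miR-665-3p: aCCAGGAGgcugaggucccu
miR-26a and miR-26b share a seed and had the lowest values against day 0 among the abundant microRNAs, and miR-21 was the most abundant member in the day 14 livers.
miR-26a-5p: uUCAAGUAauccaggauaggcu
miR-26b-5p: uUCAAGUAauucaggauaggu
miR-21a-5p: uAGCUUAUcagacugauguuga
The last pair, miR-706 and miR-1198, was by far the highest in day 14 liver C.
miR-706: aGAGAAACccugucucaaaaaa
miR-1198-5p: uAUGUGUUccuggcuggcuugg
The full miR-706 sequence was found 21403 times in the NCBIM37 genome, on either strand, and that of miR-1198-5p 2 times. miR-26a-5p, which has more than 1 gene, was found 2 times, and each of the others printed here was found 1 time.

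miR-122 itself was counted first, since its excision is the treatment. It held 73.3%, 59.2% and 66.7% of all microRNA reads in the day 0 livers A, B and C, and 26.4%, 23.7% and 18.6% in the day 14 livers. Per read of any other microRNA there were 2.06 ± 0.650 miR-122 reads (SD, n = 3) at day 0 and 0.299 ± 0.0659 at day 14, a mean log2 difference of -2.76, or 6.79-fold. The groups did not overlap (exact two-sided permutation p = 0.1, the smallest that 3 against 3 allows).

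The libraries held 618498 to 808302 microRNA reads at day 0 and 253888 to 643673 at day 14. Without miR-122 these were 215898 to 252521 and 186933 to 524141 reads, so a count of 3 reads stood for 11.9 to 13.9 RPM at day 0 and for 5.72 to 16.0 RPM at day 14. Of the 226 members, 212 to 221 had a read in a day 0 library and 224 to 226 in a day 14 library. Intervals from reads were computed on reads summed over the livers of each group, so they leave out differences between mice and cover counting error only. The reads carry no molecular identifiers, so repeat reads of the same molecule cannot be recognised. The counting error itself may therefore be larger than these intervals show. Day 0 liver B stood apart from A and C in its abundant microRNAs. let-7 held 19% of its reads other than miR-122, against 46.0% in A and 53.1% in C, and miR-21 held 22.4%, against 4.54% and 1.70%. Its let-7, miR-26 and miR-21 shares lay nearer to those of the day 14 livers.

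**Figure D1:**
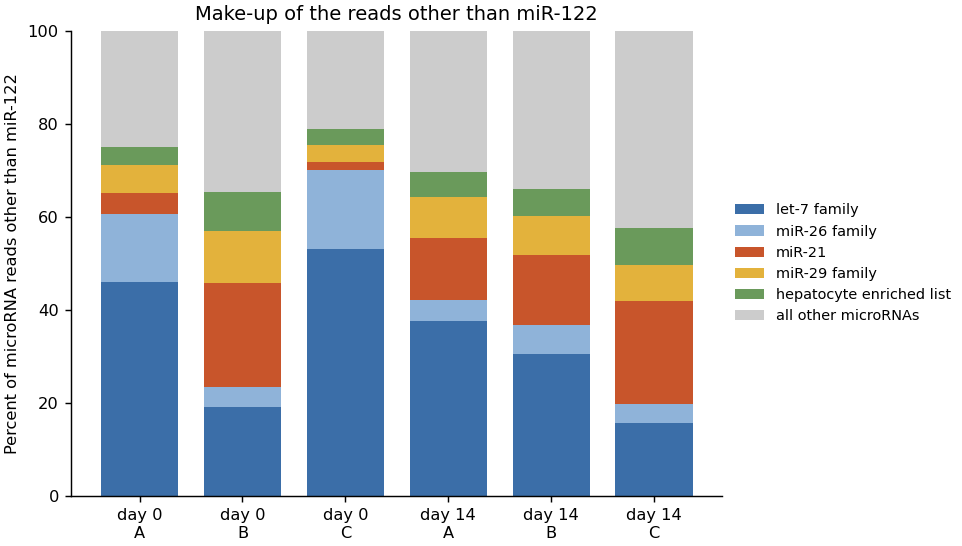
Percent of microRNA reads other than miR-122 in each of the 6 livers, stacked by family or list, with all remaining microRNAs in grey. Day 0 livers A and C hold 46.0% and 53.1% let-7, while day 0 liver B (19%) looks like the day 14 livers (15.6% to 37.7%).

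Between day 0 and day 14, 3 of the 226 microRNAs rose and none fell at an adjusted p of 0.05 (limma on log2(RPM + 1), Benjamini-Hochberg over all 226), or 1.33% of those tested. These were miR-34a, miR-155 and miR-669o. At an unadjusted p of 0.05, 36 were higher (15.9%) and 2 were lower (0.885%). In 45 members (19.9%) all 3 day 14 livers lay above all 3 day 0 livers, and in 0 did they all lie below. Of these 45, 16 had a day 0 mean under 10 RPM. The fit used the 15 libraries of days 0, 7, 14, 21 and 45 for its estimate of the spread.

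The members as a body were higher at day 14. Their median log2 fold change was 0.67, with 174 above 0 and 52 below. The median differed by level. In the 57 scarcest members, with means of 10.2 to 50.9 RPM, the median was 1.55, and in the 57 most abundant, with means from 1790 RPM, it was 0.30. The filter fixes part of this difference, since the 23 members that reached 10 RPM only at day 14 are scarce and had to be higher there. RPM are shares, so a lower share of an abundant family raises the RPM of the rest by construction. Log2 fold changes of the microRNAs described below are therefore also given after each library was centred on its median member, where the median over all 226 was 0.040. Of the 226, 140 were within 1 log2 unit of their day 0 level, 83 were higher by more than that and 3 were lower.

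**Figure D2:**
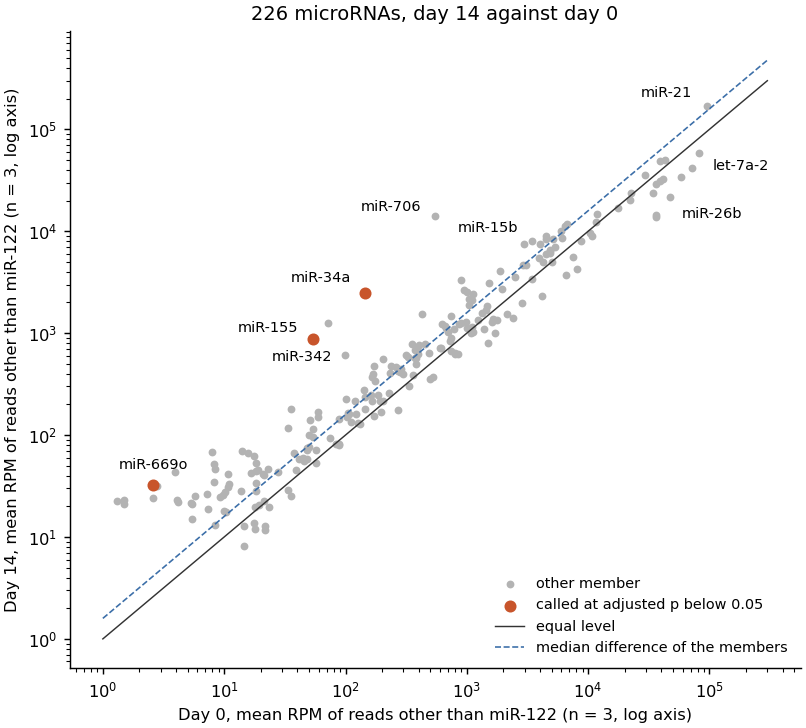
Mean RPM (reads other than miR-122) of the 226 microRNAs at day 0 (x axis) and day 14 (y axis), both log axes, n = 3 livers each. miR-34a, miR-155 and miR-669o, called at an adjusted p below 0.05, are in orange, the solid line marks equal levels and the dashed line the median log2 difference of 0.67. miR-26b and let-7a-2 lie below the solid line and miR-706, not called, lies far above it.

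miR-34a, a microRNA whose gene is activated by the transcription factor p53 and which represses cell cycle genes, had the largest log2 fold change. Its gene lies at chr4:149442563-149442664 (+, NCBIM37), where the gencode vM1 annotation has no other gene. It was read at 222, 139 and 76.8 RPM in the day 0 livers and at 2734, 2284 and 2450 RPM in the day 14 livers. The lowest day 14 liver was thus far above the highest day 0 liver, and the day 14 livers differed little among themselves. The mean rose from 146 ± 73.1 to 2489 ± 227 RPM (SD, n = 3 each), a ratio of the means of 17.1. The mean difference of log2(RPM + 1), which is the log2 fold change given throughout, was 4.21 (SE 0.66, limma adjusted p = 0.00084). After median centring the log2 fold change was 3.58 (limma adjusted p = 0.0014). These values rest on 102 reads at day 0 and 2705 at day 14. The other 5 listed genes of the miR-34 and miR-449 family were no members. With them the family summed to 222, 150 and 76.8 RPM at day 0 and to 2744, 2327 and 2456 RPM at day 14, so miR-34a made up nearly all of the family.

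miR-34a was already high at day 7, with 2246, 1591 and 796 RPM. The log2 difference of day 14 from day 7 was 0.81 (limma adjusted p = 0.94). Of the livers sampled once, the first (day 1) had 399 RPM, and those of days 2 and 3 had 1766 and 1019 RPM. The liver of day 10 had 2502 RPM and that of day 17 had 8133 RPM, the highest value of the series. The day 21 livers had 1522, 1403 and 1257 RPM. The day 45 livers spread from 304 to 2810 RPM, and the single day 200 liver had 114 RPM, inside the day 0 range.

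miR-155, a microRNA of activated lymphocytes and macrophages, rose as well. It lies at chr16:84714385-84714449 (+, NCBIM37), in an exon of the long non-coding RNA annotated under the same name. It had 64.8, 43.6 and 52.5 RPM in the day 0 livers and 407, 2031 and 204 RPM in the day 14 livers. The groups did not overlap, but the day 14 livers differed widely among themselves and liver B held most of the mean. The mean went from 53.6 ± 10.6 to 880 ± 1001 RPM (log2 3.36, SE 0.67, limma adjusted p = 0.0082). Without day 14 liver B the log2 fold change was 2.42 and the call was lost (limma adjusted p = 0.086). After median centring it was 2.73 (limma adjusted p = 0.058).

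miR-155 was the only one of the 226 that differed between day 14 and day 7 at an adjusted p of 0.05 (0.442% of those tested). At day 7 the livers held 56.1, 23.3 and 34.5 RPM, inside or below the day 0 range. The log2 difference of day 14 from day 7 was 3.92 (SE 0.67, limma adjusted p = 0.0026). The single livers of days 10 and 17 had 163 and 1211 RPM, and those of day 21 had 477, 249 and 483 RPM. miR-34a was above all day 0 livers in every liver from day 1 to day 100, whereas for miR-155 this held in every liver from day 10 on, and before that only in the day 2 liver (72.2 RPM, 15 reads). Day 14 and day 21 were also compared, and 0 of 226 microRNAs passed (0%), with 10 at an unadjusted p of 0.05.

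**Figure D3:**
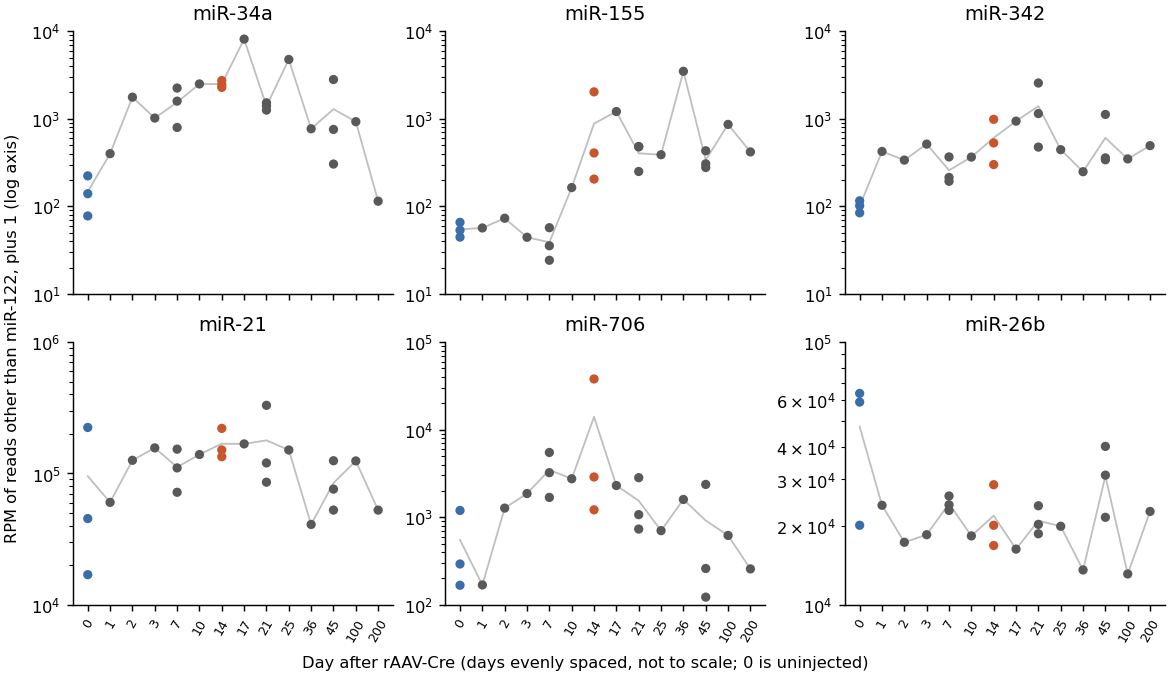
RPM of reads other than miR-122, plus 1 (log axis), of 6 microRNAs in each floxed liver against the day after rAAV-Cre, with days evenly spaced. Blue points are day 0, orange points day 14, grey points other days, and the line joins the mean of each day. miR-34a lies above the day 0 livers from day 1 (399 RPM) to day 100, with the day 200 liver (114 RPM) back in their range, miR-155 lies above them from day 10 on (163 RPM), and miR-26b at day 14 lies in the range of most other days after injection.

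miR-669o, the third call, was scarce. It is 1 of a large tandem group of microRNAs in an intron of Sfmbt2, at chr2:10435927-10436022 (+, NCBIM37). It had 0, 2 and 0 reads in the day 0 livers and 3, 20 and 16 reads in the day 14 livers, or 0, 7.84 and 0 RPM against 16.0, 50.2 and 30.6 RPM. All day 0 values lay under the 3-read limit. With a day 0 mean of 2.61 RPM it was tested only because of its day 14 level, so the filter required it to be higher at day 14 and neither the call nor the interval is independent of that. Summed over the groups the ratio was 12.6 with a 95% exact counting interval of 3.26 to 108. The log2 fold change on the RPM + 1 scale was 3.87 (SE 0.95, limma adjusted p = 0.049). With a pseudocount of 10 it was 1.72 (limma adjusted p = 0.13), and after median centring 3.24 (limma adjusted p = 0.16). The call was also lost with no filter on low values (limma adjusted p = 0.079), with only the day 0 and day 14 livers in the fit (limma adjusted p = 0.24), with the replicate letter as a block (limma adjusted p = 0.052) and without any 1 of day 0 livers A and C and day 14 livers B and C (limma adjusted p = 0.13 to 0.22), where log2 fold changes ran from 3.34 to 3.84.

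Members of the Sfmbt2 type are near-copies of each other, and with mismatches allowed in the alignment a read may have gone to the wrong copy. Of 51 listed, 10 were members, 8 of them with a day 0 mean under 10 RPM. All 10 had a positive log2 fold change, but this filter favours such values. Summed over all 51, the group held 100.3, 198 and 107 RPM at day 0 and 304, 730 and 374 RPM at day 14. The lowest day 14 sum was above the highest day 0 sum.

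Beyond the calls, the rule for the largest rises (unadjusted p under 0.05 with no overlap of the groups) named 9 more microRNAs. None of them passed the adjusted threshold.

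miR-706 and miR-1198 were named by this rule and were led by day 14 liver C. Day 14 livers A and B also lay above every day 0 liver, for miR-706 only narrowly in A. miR-706 had 292, 166 and 1195 RPM at day 0 and 1214, 2882 and 37932 RPM at day 14. The log2 fold change was 3.72 (SE 1.12, limma adjusted p = 0.089), 3.09 after median centring and 2.27 when liver C was left out (limma adjusted p = 0.36). Without day 14 liver A it was 4.75 and passed the threshold (limma adjusted p = 0.047). miR-1198 had 69.6, 47.5 and 96.9 RPM at day 0 and 134, 266 and 3339 RPM at day 14, again with liver C far above the rest. Its log2 fold change was 2.83, 2.20 after median centring and 1.45 without liver C. miR-706 is annotated at chr6:119984246-119984329 (-, NCBIM37), in an intron of Wnk1, and with 21403 copies of the sequence in the genome a read cannot be placed at that gene by sequence alone. miR-1198 lies at chrX:7384227-7384347 (+, NCBIM37), in an intron of Gripap1.

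The remaining microRNAs of this set were read only a few times at day 0. In the 3 day 0 livers together miR-434, miR-665 and miR-712 had 1 read each, miR-205 and miR-211 had 2 each, miR-669a-1 had 4 and miR-376b had 6. At day 14 they had from 18 reads (miR-434) to 88 (miR-376b). For miR-434 the ratio of summed reads was 11.6, with a 95% exact interval of 1.83 to 484, and for miR-376b it was 9.47, with an interval of 4.18 to 26.5. miR-205, a microRNA of stratified epithelia, had 2 reads against 24, a ratio of 7.75 with an interval of 1.92 to 67.6. All 7 had a day 0 mean under 10 RPM, so they were tested only because of their day 14 levels, and they were named because the groups did not overlap. Ratios and intervals above 1 were set by that choice and test nothing.

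**Figure D4:**
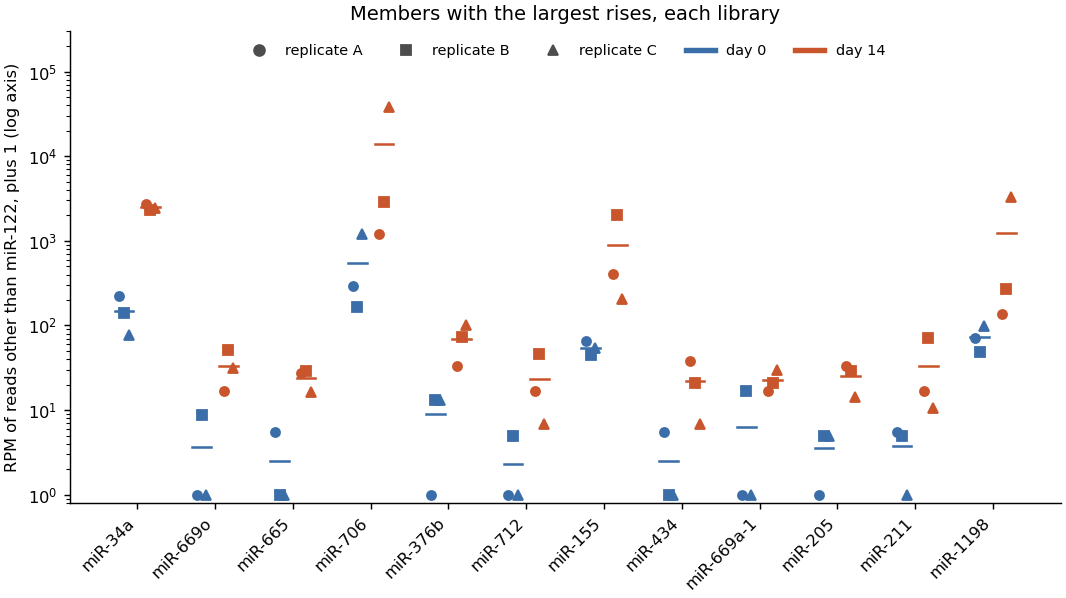
RPM of reads other than miR-122, plus 1 (log axis), in each liver. The 12 microRNAs have the largest rises among members with an unadjusted p under 0.05 and no overlap of the groups. Their separation was thus selected for. miR-669o, miR-665, miR-376b, miR-712, miR-434, miR-669a-1, miR-205 and miR-211 also passed the filter only through day 14. Blue is day 0, orange day 14, marker shapes are replicates A, B and C, and bars are means. miR-34a is tight within day 14 (2284 to 2734 RPM), miR-155 is led by liver B (2031 RPM), and miR-706 and miR-1198 by liver C (37932 and 3339 RPM).

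MicroRNAs of the imprinted Dlk1-Dio3 locus (chr12qF1), which are abundant in the fetus and low in the adult liver, were at low levels in both groups. Of 52 listed, 12 were members, and 6 of these had a day 0 mean under 10 RPM and so passed the filter only through day 14. 0 were called, 5 had an unadjusted p under 0.05 with higher levels at day 14 (15.9% over all 226), and in 6 the groups did not overlap (19.9% over all 226). With this filter the counts are a description only. Summed over all 52 the locus held 281, 301 and 338 RPM at day 0 and 567, 931 and 785 RPM at day 14. Every day 14 sum was above every day 0 sum, with a ratio of the means of 2.48.

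miR-136 held the highest level of the locus in the mean over all 6 livers and at day 14, whereas miR-127 and miR-376a were above it in the day 0 mean. It lies at chr12:110833527-110833608 (+, NCBIM37), opposite the exon of Rtl1. It had 18.3, 59.5 and 28.2 RPM at day 0 and 118, 206 and 212 RPM at day 14 (log2 2.42, SE 0.67, limma adjusted p = 0.065, and 1.79 after median centring). Without day 0 liver B it was 2.87 and passed (limma adjusted p = 0.027). miR-376b, at chr12:110961666-110961751 (+), had 0, 12 and 12 RPM and then 32.1, 72.8 and 101 RPM. For miR-127 and miR-376a of the same locus the groups overlapped. miR-127 had 92.5, 35.8 and 121 RPM at day 0 and 69.5, 120 and 53.4 RPM at day 14, a log2 fold change of 0.05 that turned to -0.58 after median centring. miR-376a had 88.0, 35.8 and 48.3 RPM and then 53.5, 113 and 47.6 RPM, with a log2 fold change of 0.30 that turned to -0.33. miR-410 stayed below the 10 RPM limit, as did miR-483 and miR-675 of the Igf2 and H19 locus, which together had 0 RPM in every day 0 liver and in day 14 livers A and B, and 1.96 RPM in liver C.

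MicroRNAs of blood cells were the list with the most members at an unadjusted p under 0.05. All 8 listed were members, 1 was called (miR-155, against 1.33% over all 226), 6 had an unadjusted p under 0.05 with higher levels at day 14 (against 15.9%), and in 6 the groups did not overlap (against 19.9%). Their median log2 fold change was 1.58, against 0.67 over all 226, and 0.95 against 0.040 after median centring. The list summed to 5067, 4384 and 5893 RPM at day 0 and to 8351, 20236 and 10364 RPM at day 14, with no overlap.

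miR-342, found in lymphocytes and myeloid cells and located in an intron of Evl at chr12:109896830-109896928 (+, NCBIM37), had 83.5, 115 and 101 RPM at day 0 and 530, 986 and 300 RPM at day 14 (log2 2.43, SE 0.64, limma adjusted p = 0.055, and 1.81 with limma adjusted p = 0.24 after median centring). Leaving out day 0 liver B or day 14 liver C brought it past the threshold (limma adjusted p = 0.041 and 0.042). miR-223, a myeloid microRNA, had 598, 340 and 335 RPM and then 1236, 1795 and 1566 RPM (log2 1.89, limma adjusted p = 0.10, and 1.26 after median centring). miR-150, of mature lymphocytes, had 287, 170 and 157 RPM and then 610, 695 and 372 RPM. miR-142, of all blood cells, had 2525, 1996 and 4331 RPM and then 3493, 12458 and 6365 RPM, with day 14 liver A inside the day 0 range. In the same list miR-511, a macrophage microRNA, had 848, 705 and 658 RPM at day 0 and 615, 871 and 521 RPM at day 14, a log2 fold change of -0.16 that was -0.79 after median centring and turned to 1.05 on the scale of all reads.

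In the red blood cell, endothelial, mesenchymal and hepatocyte lists the summed levels of the groups overlapped. The red blood cell microRNAs (miR-144, miR-451 and miR-486) summed to 8217, 20782 and 8786 RPM at day 0 and to 8425, 14649 and 15574 RPM at day 14, with miR-451 the most abundant in each liver. Within it miR-144 had 375, 2095 and 238 RPM at day 0 and 792, 6720 and 2549 RPM at day 14, with overlap, and was the 1 member of the list with an unadjusted p under 0.05. The endothelial miR-126 had 37749, 42476 and 38189 RPM and then 33552, 50870 and 63382 RPM. The 6 mesenchymal microRNAs, among them miR-143, summed to 6971, 9548 and 4670 RPM and then to 10325, 12774 and 9114 RPM. Hepatocyte microRNAs other than miR-122 (miR-192, miR-194, miR-148a and miR-802) summed to 38963, 85272 and 33192 RPM and then to 54688, 58425 and 80005 RPM. The neural list stayed at 7.74 to 14.9 RPM in all 6 livers and the pancreas list at 0 to 13.9 RPM, the level of a few reads. The part that changed cell numbers take in these values was not tested.

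Among the abundant microRNAs, those of the miR-26 family were lower at day 14 than in day 0 livers A and C. miR-26b, in an intron of Ctdsp1 at chr1:74440884-74440968 (+, NCBIM37), had 59116, 20082 and 63782 RPM at day 0 and 20077, 28648 and 16820 RPM at day 14. Liver B of day 0 lay within the day 14 range, and the test was not passed (log2 -0.99, SE 0.46, limma adjusted p = 0.29). After median centring the value was -1.62 (limma adjusted p = 0.24), and on the scale of all reads it turned to 0.23. The 2 members lower at an unadjusted p under 0.05 were miR-26b and miR-26a-1, which had 44016, 11366 and 52436 RPM and then 11721, 16981 and 12745 RPM (log2 -1.12, and -1.75 after median centring). miR-26a-1 and miR-26a-2 give the same mature sequence, so their separate values depend on how the authors split the reads. Other numbered copies, such as let-7c-1 with let-7c-2 or miR-16-1 with miR-16-2, were likewise counted as separate members throughout. Without day 0 liver B, all 3 genes of the family passed, with log2 fold changes of -1.82 for miR-26a-1 (limma adjusted p = 0.018), -1.77 for miR-26a-2 and -1.53 for miR-26b. Without day 0 liver C the values were -0.71, -0.65 and -0.69, and none passed (limma adjusted p = 0.90 to 0.98).

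The let-7 family, which keeps cells differentiated by repressing growth genes, was the largest part of the reads besides miR-122 in the mean of each group, although miR-21 exceeded it in day 0 liver B and day 14 liver C. It held 46.0%, 19% and 53.1% at day 0 and 37.7%, 30.5% and 15.6% at day 14. The groups overlapped, 10 of 11 members had a negative log2 fold change on the scale without miR-122, and 0 of 11 had an unadjusted p under 0.05. The median log2 fold change of the family was -0.36, and -0.99 after median centring, where 0 of 11 were above 0. Its most abundant gene, let-7a-2, had 89019, 32290 and 122304 RPM and then 78986, 66418 and 28952 RPM (log2 -0.40, SE 0.52). That value was -1.03 after median centring and turned to 0.81 on the scale of all reads, miR-122 included.

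miR-21, which is raised in growing and inflamed tissue, had 45364, 223886 and 16960 RPM at day 0 and 134171, 151059 and 220402 RPM at day 14. Liver B of day 0 was above all day 14 livers, and A and C were below all of them (log2 1.57, SE 0.70, limma adjusted p = 0.29). Without day 0 liver B the log2 fold change was 2.57 and passed the threshold (limma adjusted p = 0.013), without day 0 liver C it was 0.71 (limma adjusted p = 0.99), and after median centring it was 0.94 (limma adjusted p = 0.63). miR-21 lies in an exon of Vmp1 at chr11:86397569-86397660 (-, NCBIM37). miR-192, a hepatocyte microRNA, had 32001, 68652 and 29104 RPM at day 0 and 39314, 49023 and 62504 RPM at day 14.

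Among the families, the miR-15 and miR-16 family of cell cycle inhibitors had 7 members, all above 0 (6 after median centring), with 0 called and a median log2 fold change of 0.99. In 2 of them, miR-15b and miR-195, the groups did not overlap (19.9% over all 226). miR-15b had 2779, 3330 and 4290 RPM at day 0 and 7473, 8401 and 8345 RPM at day 14 (log2 1.24, SE 0.41, limma adjusted p = 0.13), and the log2 fold change was 0.61 after median centring (limma adjusted p = 0.63). The most abundant, miR-16-1, had 4998, 11282 and 3939 RPM and then 11234, 11077 and 13288 RPM. The miR-23, miR-24 and miR-27 clusters had 6 members with a median of 1.30 (0.67 after median centring), 0 called, and 4 without overlap (19.9% over all 226). Among these 4 are both miR-24-1 and miR-24-2, copies that were counted separately and had similar values. miR-23a had 3881, 7845 and 1659 RPM and then 9067, 8339 and 9824 RPM, and miR-27a had 824, 1481 and 561 RPM and then 2199, 2262 and 3411 RPM.

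The miR-200 family of epithelial cells had 5 members with a median of 1.06 (0.43 after median centring), and its top member miR-200a had 394, 523 and 141 RPM against 792, 896 and 677 RPM. Of the embryonic stem cell clusters 2 of 12 were members, both with a day 0 mean under 10 RPM. Their top member, miR-290, had 0, 7.84 and 3.90 RPM against 5.30, 40.1 and 84.0 RPM. The median log2 fold changes of the other families with at least 3 members ran from 0.22 in the X-linked miR-322 and miR-503 cluster (-0.40 after median centring) to 1.25 in miR-103 and miR-107, and 0 of their members was called. Close to the median of all 226 lay the miR-17 to miR-92 clusters (13 members, 0.70), and below it the miR-29 (0.47), miR-30 (0.38) and miR-99, miR-100 and miR-125 groups (0.35), whose medians turned to -0.16, -0.25 and -0.27 after median centring. The miR-10 and miR-101 families, miR-221 with miR-222 and the muscle list had 2 members each, with 0 called.

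**Figure D5:**
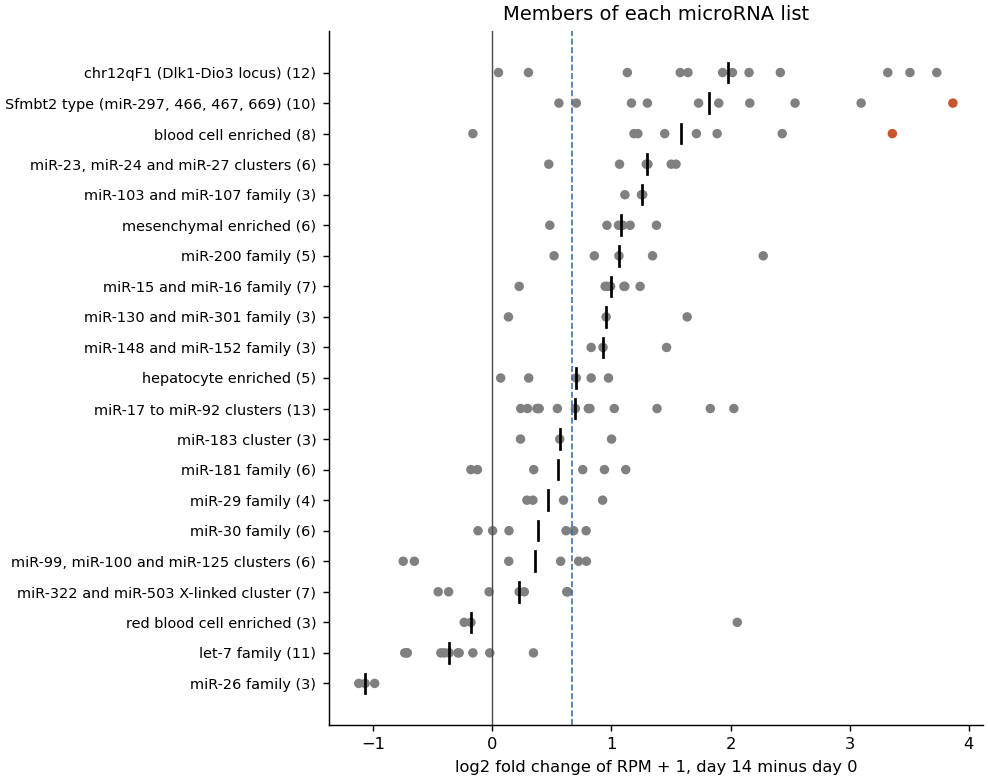
Log2 fold change of RPM + 1, day 14 minus day 0, for the members of each list with at least 3 members (number in brackets). Each point is 1 microRNA, orange if called, the black bar is the median of the list, the solid line is 0 and the dashed line the median of all 226 (0.67). The medians of the Dlk1-Dio3, Sfmbt2 and blood cell lists lie farthest to the right, although miR-511 of the blood cell list lies left of 0. In the first pair, 6 of 12 and 8 of 10 members passed the filter only through day 14. Other lists also have medians right of the dashed line, such as miR-23, miR-24 and miR-27 (1.30) and the mesenchymal list (1.08). The miR-26 family is the one list with all members left of 0 by about 1 log2 unit.

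The calls depended on the livers and on the scale. Without day 0 liver B, 12 microRNAs rose and 3 fell, and without day 14 liver B only miR-34a was called. Scaled to all microRNA reads, 149 of the 226 rose and none fell, with a median log2 fold change of 1.82, since miR-122 gave up a large share of the reads. Centred on the median member, only miR-34a was called.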

How the data were processed

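Small RNA libraries of 42 mouse livers were deposited in 1 table, of which the 6 day 0 and day 14 libraries of floxed mice were compared and 15 entered the fit. Small RNA was size selected on a gel and sequenced on a MiSeq. After adaptor trimming the authors placed the reads on miRBase release 15 microRNAs with Bowtie 0.12.7, with up to 2 mismatches, and deposited RPM values with 1 added. How reads that match several microRNAs were assigned is not given in the sources used here. The other deposited table, FPKM of 14 RNA-seq libraries, was not used.

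The added 1 was subtracted. In each library all low values (100%) were whole multiples of 1 read within 0.1 read, which gave the reads. Values were rescaled to reads other than miR-122, and members were those with a mean of at least 10 RPM over the 6 libraries. log2(RPM + 1) was tested with limma 3.58.1 (R 4.3.3) without a replicate block, adjusted by the Benjamini-Hochberg method at 0.05. The fitting code was tested on simulated data. The replicate letters did not pair the mice: same-letter deviations of day 0 and day 14 correlated at 0.34, -0.23 and -0.16.

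Named microRNAs were those called, up to 12 largest rises and falls with an unadjusted p under 0.05 and no overlap, the 10 most abundant at day 0, those the study names and the top member of each list. No fall met the rule. miR-26a-1, miR-26a-2, miR-342, miR-223, miR-150, miR-511, miR-144, miR-15b, miR-195 and miR-27a were named after their values were seen. The members, lists and rule were chosen with earlier results of these data known. Coordinates are from gencode vM1 on NCBIM37, which matches the mm9 build of the submitters' processing notes. Alternatives were other scalings, pseudocounts, filters, sets of libraries and a replicate block. Versions were Python 3.11.15, pandas 2.3.3 and scipy 1.17.1.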

Additional observations from a re-analysis of the deposited data

Results flagged for a closer look

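miR-155 was marked because its level differed between day 14 and day 7 by the test of that difference itself, with a log2 difference of 3.92 (limma adjusted p = 0.0026, higher in 3 of 3 day 14 livers). The day 0 and day 7 livers lay at 64.8 RPM or less.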

How the results depend on the processing

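Of the 226 members, the number called between day 0 and day 14 was 149 on the scale of all reads, miR-122 included, and 1 (miR-34a) with trimmed mean centring, with median centring or with only the 2 groups compared in the fit. It ranged from 1 to 15 when 1 liver was left out, with 1 without day 14 liver B and 15 without day 0 liver B. With other pseudocounts, filters or summed copies it was 2 to 4. With a replicate block it was 3, of which 2 were among the 3 calls without it, miR-669o being lost (limma adjusted p = 0.052) and miR-376b gained. Against day 7 each alternative called 1, miR-155, and between day 14 and day 21 each called 0, the replicate block included. The day 14 to day 0 difference of miR-122 kept its sign in each alternative.

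miR-34a was called in each alternative, with log2 fold changes of 3.58 to 5.40. On the scale of all reads the sign turned for let-7a-2 (0.81), miR-26b (0.23), miR-26a-1 (0.094), miR-26a-2 (0.15) and miR-511 (1.05). It turned for miR-127 with trimmed mean and median centring (-0.55 and -0.58) and for miR-376a (-0.30 and -0.33). With 1 liver left out, let-7a-2 ranged from -0.97 to 0.037, miR-127 from -0.46 to 0.40 and miR-376a from -0.080 to 0.66. The other single microRNAs printed with a fold change kept their sign. With median centring the medians of several families turned below 0: those given above for miR-322 with miR-503, miR-29, miR-30 and miR-99 with miR-100 and miR-125, and also miR-181 (0.55 to -0.076), the miR-183 cluster (0.57 to -0.063), miR-101 (0.42 to -0.21) and miR-221 with miR-222 (0.38 to -0.25). Over the 53 microRNAs recomputed, 27 changed sign in at least 1 alternative, none of them called. The causes were not tested.

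Tests on counts, planned as alternatives, were not run, because the deposited columns, with 1 added to each value, did not pass as whole reads, and the reads behind the counting intervals were recovered only after that 1 was subtracted. Depth limits the scarce microRNAs: 15 of the 226 had at most 5 reads in the 3 day 0 livers together.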
